A study of Homo sapiens with 12 samples.

Results

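The knock-down of CNOT1 was examined within its own cell line, as the difference between the array of pIND CNOT1 cells treated with doxycycline (+Dox) and the array of the same cells without it (-Dox). These are 2 of the 12 arrays of the series and were chosen by their sample titles. HEK-293T cells, an epithelial line from human embryonic kidney that the labels write as HEK 292T, carried a stably integrated pINDUCER plasmid (pIND), from which Dox switches on a short hairpin RNA in a miR30 backbone. The hairpin was directed against CNOT1 or, in the control line pIND Luci, against firefly luciferase, and Dox was given at 1 µg/ml for 4 days. CNOT1 +Dox and CNOT1 -Dox have 1 array each, and Luci +Dox and Luci -Dox have 2 arrays each, which gives 2 pairs that show how far a line without a CNOT hairpin differs with Dox. The lines are cell clones, so a level difference between CNOT1 and Luci cells that exists also without Dox cannot be assigned to the hairpin. The CNOT2 line, with 2 pairs, and the CNOT3 line, with 1 pair, were built in the same way. For the second Luci -Dox array, 1 label field contradicts its title about the Dox treatment. The title was followed, and counts without the second Luci pair are given.

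The CCR4-NOT complex removes poly(A) tails from mRNAs and thereby starts their decay, and it also represses transcription and translation. CNOT1 is the large scaffold protein to which the other subunits bind, among them CNOT2 and CNOT3, which form the NOT module, and the deadenylases CNOT6, CNOT6L, CNOT7 and CNOT8. Adaptor proteins such as the NANOS, BTG and TNRC6 families bring the complex to particular mRNAs.

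Each array has 62976 spots, and the deposited values are log2 signals between 1.56 and 15.98 with the same quartiles on every array (2.54, 3.34 and 6.69), so that values below about 3 are those of the dimmest spots. A gene was represented by its brightest spot, and 15031 of 20042 genes had a mean level over all arrays at or above the 25th percentile, which is 2.96. Of these, 10021 genes lay at or above the median level of 5.75 and are called the bright set. The 10 epithelial and HEK markers ranged from 2.56 to 14.7 on the CNOT1 arrays, with the summed log2 level of 14.83 without and 14.98 with Dox carried by the bright ones, while EPCAM had at most 3.96 and KRT19 at most 3.3. The 7 blood markers measured lay between 2.15 and 5.48, with CD3E, MS4A1 and HBB below the filter. The 5 endothelial markers did not exceed 4.0, with PECAM1, CDH5, KDR and TEK below it. The 8 fibroblast markers reached 6.63, COL1A2, COL3A1, LUM and THY1 were below the filter, and their summed level was 7.21 without and 7.57 with Dox.

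CNOT1 mRNA was measured by 1 spot, with a level of 7.23 without and 5.07 with Dox, a log2 difference of -2.16. The signal with Dox was 4.47-fold lower, or 22.4% of that without Dox. On the other 10 arrays of the series CNOT1 ranged from 6.35 to 7.24 with a median of 6.545, so the CNOT1 +Dox array lay below all of them and the CNOT1 -Dox array was near their upper end. The Luci arrays had 6.48 without and 6.64 with Dox in replicate 1 and 6.52 and 6.43 in replicate 2, differences of 0.16 and -0.09. In the bright set, this was the lowest of all 10021 differences, while among all 15031 genes 48 dimmer ones had a lower one. In RNA of a whole culture, fewer cells with an mRNA and less of it per cell cannot be told apart.

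**Figure D1:**
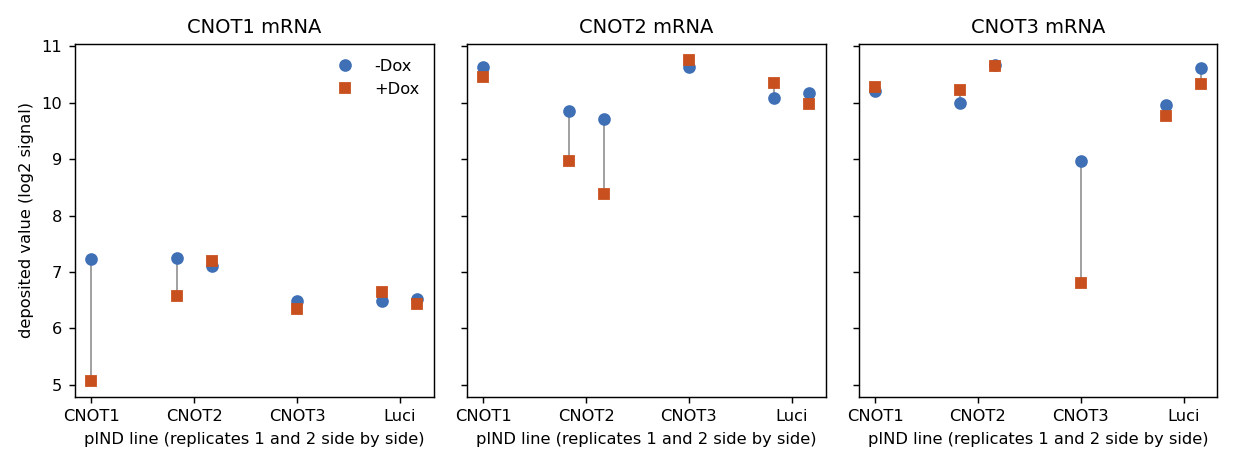
Levels of the CNOT1, CNOT2 and CNOT3 mRNAs on the 12 arrays (y axis, deposited log2 signal; x axis, line), with circles for -Dox and squares for +Dox and a line joining each pair. In the CNOT1 line the CNOT1 signal is at 7.23 and 5.07, while CNOT2 is at 10.63 and 10.45 and CNOT3 at 10.21 and 10.28.

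The mRNAs of the other subunits stayed close to their levels without Dox. CNOT2 had 10.63 without and 10.45 with Dox (-0.18) and CNOT3 had 10.21 and 10.28 (0.07), with 0.20 and 0.44 as means of 2 spots each. Among the deadenylases, CNOT6 had a difference of -0.34, CNOT6L of -0.32, CNOT7 of 0.21 and CNOT8 of 0.11. C2orf29, which encodes CNOT11, and RQCD1, which encodes CNOT9, had 0.19 and 0.20. The largest difference among these 11 subunits was -0.72, for TNKS1BP1, a dim gene with 4.16 and 3.44, whose mean over 2 spots was 0.45. CNOT1 was the 1 of 12 subunits that passed the 2-fold threshold (8.33%, beside 8.54% of all genes). The median over the 12 was 0.06, beside 0.01 over all genes.

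Over all 15031 genes, 750 (4.99%) were more than 2-fold higher and 534 (3.55%) more than 2-fold lower with Dox in CNOT1 cells. The control line had numbers of the same order. In Luci replicate 1, 502 genes (3.34%) were higher and 661 (4.4%) lower, and in Luci replicate 2 these were 1328 (8.84%) and 790 (5.26%). The SD of the differences over genes was 0.578 in the CNOT1 pair, 0.54 in the first and 0.715 in the second Luci pair. In the bright set, 92 genes were higher and 53 lower in CNOT1 cells, compared with 27 and 56 in Luci replicate 1 and 511 and 209 in Luci replicate 2. Counted in either direction, 8.54% of all genes were past 2-fold in the CNOT1 pair, between the 7.74% and 14.1% of the Luci pairs, and the number of lower genes was smaller than in both of them.

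**Figure D2:**
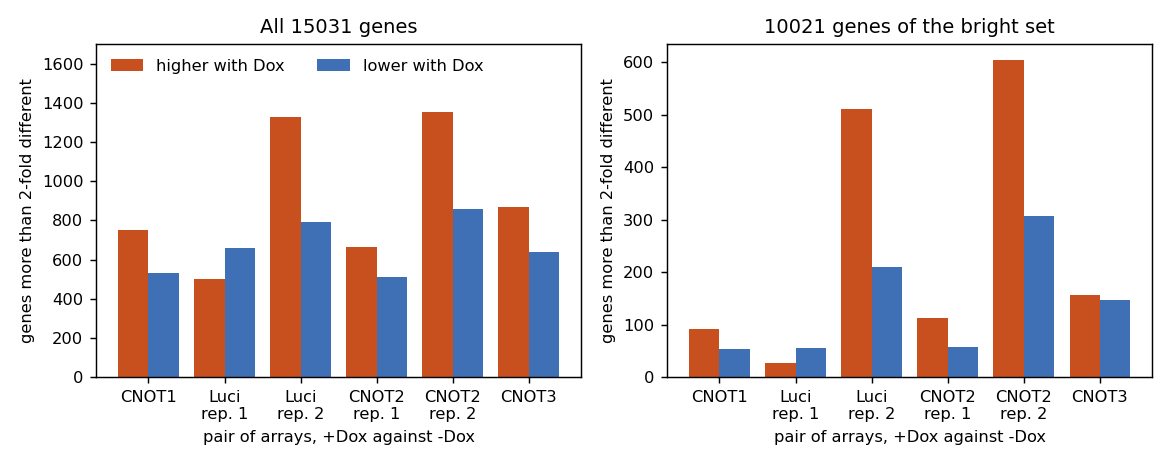
Number of genes more than 2-fold higher or lower with Dox (y axis) in each of the 6 pairs of arrays (x axis), for all 15031 genes on the left and for the 10021 genes of the bright set on the right, where the y axis has its own scale. The CNOT1 pair has 750 and 534 genes on the left and 92 and 53 on the right, in both panels between the 2 Luci pairs in the number of higher genes.

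To separate genes of the CNOT1 line from those that move with Dox in Luci cells, a gene was called where its difference exceeded 2-fold and also exceeded each Luci difference by more than 2-fold in the same direction. This held for 336 genes in the higher (2.24%) and 259 in the lower direction (1.72%), together 3.96% of all genes, beside which the shares of gene lists are read. When each Luci pair was treated in the same way against the other Luci pair and the CNOT1 pair, Luci replicate 1 had 196 (1.3%) and 326 (2.17%) and Luci replicate 2 had 709 (4.72%) and 398 (2.65%). Of the 336 genes, 281 were 2- to 4-fold and 55 were 4- to 8-fold higher. Of the 259 genes, 203 were 2- to 4-fold, 45 were 4- to 8-fold and 11 more than 8-fold lower. Against the first Luci pair alone, 526 genes were called higher and 355 lower, so leaving out the pair with the uncertain label raised the higher count more than 1.5-fold.

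The called genes were mainly dim. Of 5 equally large bins of genes ordered by level, the dimmest spanned mean levels from 2.96 to 4.16, and 12.6% of its genes were called in either direction, compared with 6.05%, 0.964%, 0.0998% and 0.0665% in the next 4 bins. The SD of the differences went down in the same order, from 0.947 to 0.219 in the CNOT1 pair and from 0.895 to 0.174 in Luci replicate 1. Of the bright set, 37 genes were called higher (0.369%) and 23 lower (0.23%). By kind of gene, 3.64% of 13856 protein-coding genes were called, as were 10.3% of 390 long non-coding RNA genes and 7.55% of 212 snoRNA genes. These kinds were not matched for level.

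**Figure D3:**
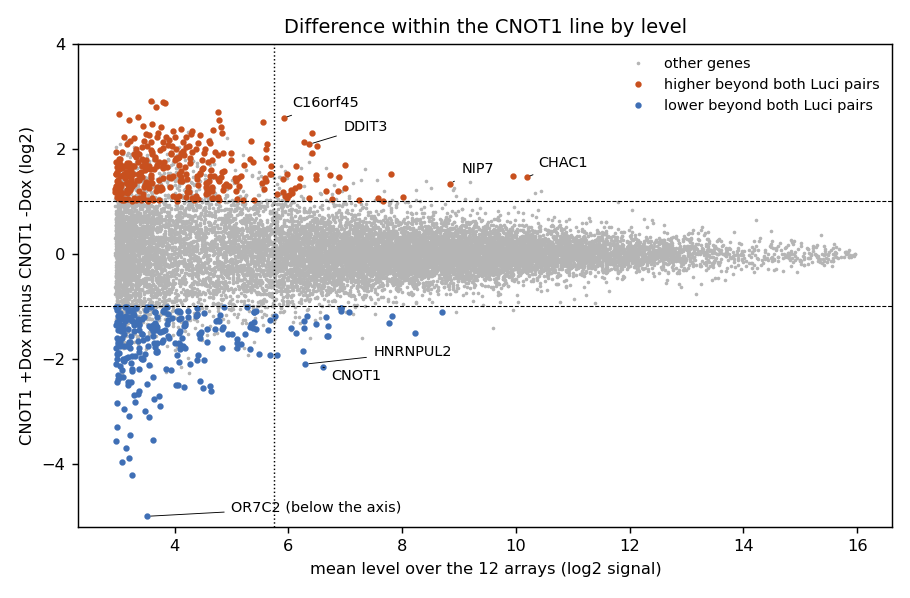
Log2 difference between CNOT1 +Dox and CNOT1 -Dox (y axis) against the mean level over the 12 arrays (x axis) for 15031 genes, 1 point each, with 336 genes called higher and 259 called lower in colour, 2-fold marked by dashed lines and the median level of 5.75 by a dotted line. The spread narrows towards bright genes, CNOT1 has the lowest difference to the right of the dotted line, and OR7C2, at -9.89, is drawn at the lower edge.

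With 1 array per condition a single difference has no replicate check. A limma fit over all 12 arrays, in which the lone arrays are assumed to vary like the CNOT2 and Luci groups, called 0 genes higher and 0 lower (0.0% of 15031) at an adjusted p of 0.05, while 207 and 176 genes had an unadjusted p below it. CNOT1 itself had a standard error of 0.427 and a p of 0.00163 in this fit, with an adjusted p of 1. The difference between the effects in CNOT1 and in Luci cells, tested as a limma contrast of its own, also gave 0 calls, with unadjusted p below the threshold for 189 genes higher and 197 lower. For CNOT1 this contrast was -2.19 ± 0.523 (standard error), and its adjusted p was 1. All further differences are therefore given as measured values of these arrays.

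Among the 23 genes of the bright set called lower, CNOT1 was followed by HNRNPUL2, which encodes a nuclear RNA-binding protein, with 7.21 without and 5.11 with Dox (-2.10). Its Luci levels lay between 5.84 and 6.08, below CNOT1 -Dox and above CNOT1 +Dox cells. PROS1, which encodes the anticoagulant protein S, had 5.74 and 3.82 (-1.92, or -0.66 as the mean of 4 spots) and differences of -0.33 and 0.14 in the Luci pairs. BAZ2A, which encodes a subunit of the chromatin remodelling complex that silences ribosomal RNA genes, had 6.70 and 5.13 (-1.57), while the other 10 arrays ranged from 6.37 to 7.25. FTSJD2, now CMTR1, the methyltransferase of the mRNA cap, had 8.03 and 6.52 (-1.51) against 7.90 to 8.95 elsewhere, the highest levels of the 12 genes with the largest lower differences. DUSP9, a MAP kinase phosphatase gene, had 6.43 and 5.02 (-1.41), and CYBRD1, a ferric reductase gene, had 5.61 and 4.19 (-1.42) on its brighter spot but -0.04 as the mean of its 2 spots. IL11RA, the receptor of interleukin-11, had a difference of -1.38 and the snoRNA SNORD56 of -1.34. Of the 23 genes, 17 had a lower level on the CNOT1 +Dox array than on all 10 arrays of other lines, which is a description, since the call itself used that array.

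Among the adaptors, NANOS3, an RNA-binding protein of germ cells, had 7.01 without and 5.16 with Dox (-1.85), beside Luci differences of -0.61 and -0.31. It was the 1 called gene of 15 adaptor genes kept (6.67%, beside 3.96% of all genes), whose median was 0.02. TNRC6A, an effector of microRNA silencing, had -0.78, and BTG1, an antiproliferative adaptor of the deadenylases, had 8.10 and 9.05, a difference of 0.95. Of 39 other mRNA decay factors, 0 were called, and their differences ranged from -0.85 for PAN3, of another deadenylase, to 0.43 for the exosome gene EXOSC6.

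Among the 37 genes of the bright set called higher, C16orf45, now BMERB1, had 3.48 without and 6.07 with Dox, a log2 difference of 2.59 or 6.02-fold. Its Luci differences were 0.37 and 1.56. PAX7, a transcription factor of muscle stem cells, had 2.39 and 4.70 (2.31, or 1.29 as the mean of 2 spots), and SYK, a tyrosine kinase of immune receptors, had 3.08 and 5.21 (2.13). Both stayed below the Luci arrays, on which PAX7 ranged from 6.75 to 7.94 and SYK from 6.49 to 7.22. The same held for NPNT, which encodes the matrix protein nephronectin (3.34 and 5.40, Luci 6.86 to 7.48), and for SH3GL2, which encodes endophilin A1 of synaptic vesicles (3.46 and 5.39, Luci 6.90 to 7.31). MAOA, a monoamine oxidase gene, had 3.47 and 4.97 against Luci levels from 7.15 to 7.67, and the cancer-testis gene CT45A5 had 2.77 and 4.30 against 9.81 to 10.20. KRCC1 had 5.86 and 7.56 (1.70), AXIN1, a scaffold of the destruction complex in Wnt signaling, had 4.67 and 6.19 (1.52), and LAMP3, a lysosomal membrane protein gene, had 3.42 and 5.10 (1.68). LAMP3 also stayed below its Luci levels of 5.59 to 7.61, while KRCC1 and AXIN1 with Dox lay within theirs.

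Of these 37 genes, 28 had a lower level on the CNOT1 -Dox array than on all 10 arrays of other lines, and 4 had a higher level on the CNOT1 +Dox array than on all of them. Among all 336 genes called higher these were 166 and 96. These counts describe the called genes and test nothing, since the call used both CNOT1 arrays and the bright set was taken from the mean over 12 arrays, to which the other lines contribute most. The 4 genes, chosen after their values were seen, were NIP7, TRNT1, OSR2 and CLSPN. NIP7, a factor of ribosome assembly, had 9.49 without and 10.83 with Dox (1.34), while the other 10 arrays ranged from 7.94 to 9.32, so that both CNOT1 arrays were above all others. TRNT1, the enzyme that adds CCA to tRNA ends, had 5.98 and 7.20 (1.22, or 0.29 as the mean of 3 spots), CLSPN, which encodes the replication checkpoint protein claspin, had 6.22 and 7.48 (1.26), and OSR2 had 5.91 and 7.03 (1.12). When the bright set was taken from the mean of the 2 CNOT1 arrays, in place of the mean over 12, 21 genes were called higher (0.21%) and 20 lower (0.2%) of 10023.

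**Figure D4:**
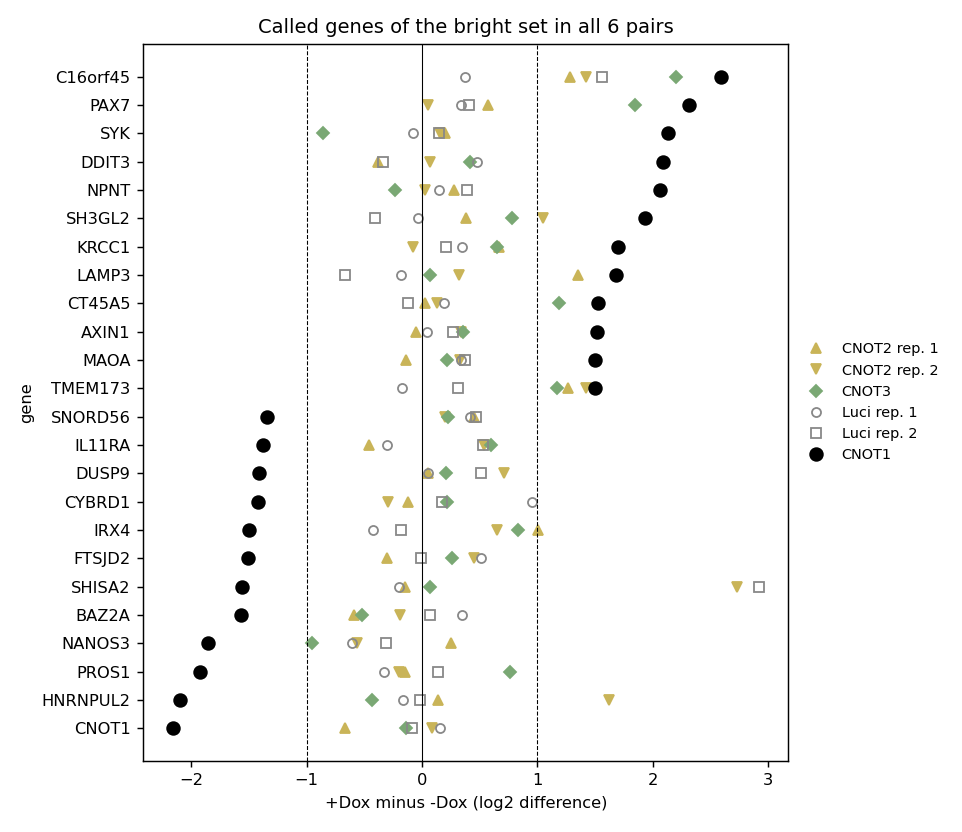
Log2 difference between +Dox and -Dox (x axis) in each of the 6 pairs for the 12 genes with the largest differences in each direction among those called in the bright set (y axis), with filled circles for the CNOT1 pair and dashed lines at 2-fold. All 3 differences of CNOT2 and CNOT3 cells are beyond 2-fold in the same direction for C16orf45 and TMEM173.

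Among all levels, the largest higher differences belonged to dim genes. SDCBP2, a PDZ protein gene, had 1.85 without and 4.76 with Dox (2.91), ZIC2, a zinc finger transcription factor gene, had 2.65 and 5.55 (2.90), and SDC3, which encodes the proteoglycan syndecan-3, had 2.25 and 5.05 (2.80, or 1.41 as the mean of 2 spots). IL12RB1, a receptor chain for interleukin-12 and interleukin-23, had 2.39 and 5.05 (2.66) against Luci levels from 2.77 to 2.98, and LEFTY1, a secreted inhibitor of Nodal, had 3.29 and 5.90 (2.61). In the lower direction, SCUBE3 had 6.01 and 1.79 (-4.22), the plakophilin gene PKP1 had 5.96 and 2.00 (-3.96), DLEU7 had 6.30 and 2.41 (-3.89) and the photoreceptor gene PRPH2 had 5.75 and 2.06 (-3.69). For these 4 genes the Luci arrays had levels between 2.02 and 3.99, all below those of the CNOT1 -Dox array. Over all levels, the CNOT1 -Dox array was above all 10 arrays of other lines for 121 of the 259 genes called lower, and the CNOT1 +Dox array was below all of them for 86. OR7C2, an olfactory receptor gene, had the lowest difference of all, with 13.07 and 3.18 (-9.89), on 1 of its 10 spots. The other 9 spots had differences between -1.45 and 0.85 with a mean of -0.27.

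Spots that measure the same transcript repeatedly show the precision within an array. There were 885 genes with 8 to 18 such spots, and the SD of the CNOT1 difference between spots of a gene had a median of 0.178 for 528 genes in the bright set and of 0.685 for dimmer genes. These SDs are technical and leave out the spread between cultures. For 10 genes (1.13%) every spot had a higher difference in the CNOT1 pair than any spot in both Luci pairs, and for 7 (0.791%) every spot had a lower one. In Luci replicate 1, set against the other pairs in the same way, these were 4 (0.452%) and 7 (0.791%), and in Luci replicate 2 they were 36 (4.07%) and 38 (4.29%).

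HMOX1, a stress-inducible enzyme of heme degradation, had 10.14 ± 0.14 without and 11.06 ± 0.11 with Dox over 10 spots, a difference of 0.93 ± 0.08 (SD between spots). Its Luci differences were 0.56 and -1.74. The long non-coding RNA LINC00467 had a difference of 0.60 ± 0.17 over 13 spots and AVEN, an inhibitor of apoptosis, of 0.40 ± 0.09 over 10 spots. Among the lower genes, OAZ2, an antizyme that limits polyamine synthesis, had -0.80 ± 0.18, the prefoldin gene PFDN6 had -0.58 ± 0.15 and BAX, a mediator of apoptosis, had -0.53 ± 0.14, each over 10 spots. The differences that were largest on average were noisier. FUT1, a fucosyltransferase gene of the H blood group antigen, had 3.71 without and 5.49 with Dox as means of 10 spots (1.79 ± 0.71), with Luci differences of 0.51 and -1.58. Its level also differed between the replicates of the control line. The FUT1 spots had 3.25 to 4.29 on the Luci -Dox array of replicate 1 and 10.81 to 11.25 on that of replicate 2. SYK had a mean difference of 1.40 ± 0.86 over its spots, which ranged from 0.12 to 2.87, so that the value of its brightest spot, 2.13, lay above that mean. SULT1A2, a sulfotransferase gene, had 6.94 and 8.03 (1.09 ± 0.21) and Luci differences of -0.05 and 0.75, and the zinc transporter gene SLC39A10 had 7.56 and 6.61 (-0.96 ± 0.28) with -0.01 and 0.06.

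**Figure D5:**
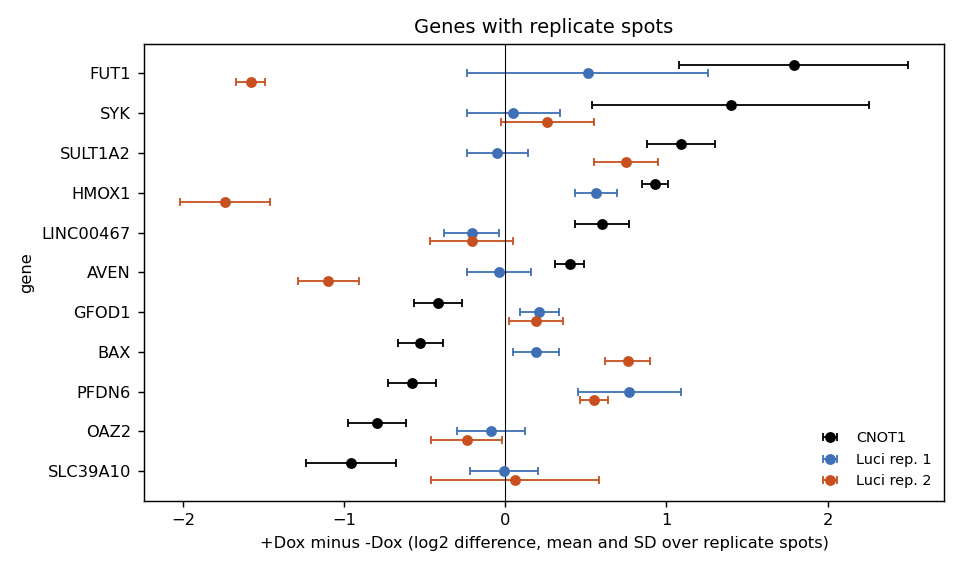
Log2 difference between +Dox and -Dox (x axis; points are means and bars are SDs over 10 spots, or 13 for LINC00467) in the CNOT1 pair and both Luci pairs for 11 genes with replicate spots (y axis). For HMOX1 the CNOT1 difference is 0.93 and the Luci differences are 0.56 and -1.74, and for BAX the CNOT1 difference is -0.53.

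Genes of the integrated stress response, in which phosphorylated eIF2 favours translation of the transcription factor ATF4, held 2 called genes among the 31 of them in the bright set (6.45%, beside 0.599% of all bright genes). DDIT3, which encodes the transcription factor CHOP, had 3.43 without and 5.52 with Dox (2.09, 4.26-fold). Both of these levels lay below the median level that defines the bright set. DDIT3 is in that set by its mean over all arrays, 6.37, which was raised by the replicate 2 arrays of CNOT2 and Luci cells, with 8.66 to 9.17. The share of called genes in the bright set is therefore not read as an excess. CHAC1, an enzyme that degrades glutathione and a target of ATF4 and CHOP, had 7.29 and 8.75 (1.46, 2.75-fold) on its brighter spot, while the other spot, at 3.42 and 3.43, was dim and the mean of both was 0.73. Their Luci differences were 0.48 and -0.34 for DDIT3 and -0.31 and -0.40 for CHAC1. On the CNOT1 -Dox array both were below all 10 arrays of other lines, whose lowest values were 4.79 and 8.41. With Dox, CHAC1 was still below its Luci levels of 8.98 to 12.57, while DDIT3 lay within its Luci range of 4.79 to 9.17. Both also differed between the replicates of the control line, since the Luci arrays of replicate 1 had 4.79 and 5.27 for DDIT3 and those of replicate 2 had 9.17 and 8.83, and the standard errors from limma were 2.99 and 2.91. With the replicate number as a block, which takes up such shifts between replicates, they were 0.388 and 0.546, and the adjusted p from limma was 0.584 and 0.966. NUPR1, a stress-induced nuclear protein outside the list, had 6.18 and 7.67 (1.49), with Luci differences of 0.23 and -1.43. Both CNOT1 levels lay below those of the other 10 arrays, which ranged from 7.81 to 13.73. Over all levels, 2 of the 33 genes of the list were called higher and 0 lower (6.06%, beside 3.96% of all genes), with a median of 0.14. SESN2, which encodes the stress-induced protein sestrin 2, had 0.98, PCK2, a mitochondrial enzyme of gluconeogenesis, had 0.80, ASNS, the asparagine synthetase gene, had 0.65 and ATF4 itself had -0.01. The chaperone gene HSPA5, a main target of the unfolded protein response, had 7.99 and 7.39 (-0.60).

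ATF4 and CHOP can bind C/EBP-ATF response elements, of which TGATGNAA is a core, and many promoters hold CCAAT boxes. The promoters of the 2 called stress genes are shown from 250 bases before to 50 after the start, from RefSeq in GRCh38.p14, since both genes were higher in the CNOT1 pair. For CHAC1 (chr15:40953221-40953520, plus strand) the capitals mark the match to TGATGNAA, which is on the opposite strand, and for DDIT3 (chr12:57520465-57520764, minus strand, the first of 2 starts) they mark CCAAT, once on each strand.
CHAC1: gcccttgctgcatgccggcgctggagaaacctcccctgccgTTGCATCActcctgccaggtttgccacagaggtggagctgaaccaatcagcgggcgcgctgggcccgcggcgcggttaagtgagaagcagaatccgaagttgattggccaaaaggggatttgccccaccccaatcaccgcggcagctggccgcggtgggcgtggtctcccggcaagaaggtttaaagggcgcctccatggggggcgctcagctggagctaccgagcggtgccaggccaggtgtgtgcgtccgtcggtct
DDIT3: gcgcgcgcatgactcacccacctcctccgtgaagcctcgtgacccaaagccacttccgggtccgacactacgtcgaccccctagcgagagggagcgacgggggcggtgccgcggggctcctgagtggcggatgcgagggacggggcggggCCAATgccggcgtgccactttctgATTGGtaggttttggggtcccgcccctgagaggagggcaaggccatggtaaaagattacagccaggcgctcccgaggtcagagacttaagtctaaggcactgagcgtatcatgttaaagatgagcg
The match in CHAC1 begins 209 bases before the start, and the window also holds 3 CCAAT matches. The DDIT3 window has 0 matches to TGATGNAA on either strand. This says nothing of bases further upstream or of the other start, which are not shown. Over 35116 RefSeq promoter windows of this length, 3.62% hold TGATGNAA and 34.6% hold CCAAT on either strand, and the motifs share no bases in these promoters.

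The MHC class II genes, which encode the peptide receptors of antigen-presenting cells and were the subject of the study, were not called in the CNOT1 pair. The study compared CNOT1 +Dox with Luci +Dox cells for this subunit. That is another contrast than the own-line pair, so its result is not tested here. Of 14 genes kept, 2 were more than 2-fold higher and 0 lower, beside 4.99% and 3.55% of all genes. Beyond both Luci pairs were 0 of them, beside 3.96% of all genes. In a list of 14 genes, 0 calls does not set it apart from that share. HLA-DPB1 had 4.02 without and 5.65 with Dox (1.63, or 0.06 as the mean of 5 spots), HLA-DPA1 had 4.94 and 6.19 (1.25), and the second Luci pair had 1.59 and 0.90 for these genes. Both stayed below the Luci arrays, on which HLA-DPB1 ranged from 5.83 to 7.42 and HLA-DPA1 from 8.05 to 9.65. HLA-DRB1 had 0.33 (0.76 as the mean of 10 spots), HLA-DMB 0.07 and HLA-DRA, near the dim end with 2.88 and 2.49, had -0.39. The median over the 14 genes was 0.50, with 12 genes above 0, compared with 0.00 and 1.03 in the Luci pairs, 1.08 and 1.94 in the CNOT2 pairs and 0.98 in the CNOT3 pair. The study chose this list on these arrays, so its direction is not independent evidence. CIITA, the master regulator of these genes, was below the filter with 2.38 and 2.98, and the 7 other regulators kept had a median of -0.20.

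Among 36 interferon-stimulated genes, 3 were called higher and 1 lower (11.1%, beside 3.96% of all genes), all 4 dim and 0 in the bright set, with a median of 0.39 beside 0.02 and 0.32 in the Luci pairs. IFIT3, an antiviral protein gene, had 3.13 without and 4.61 with Dox (1.48), SAMD9, another antiviral gene, had 2.64 and 3.94 (1.30), and PARP10, an ADP-ribosyltransferase gene, had 4.04 and 5.53 (1.49). For PARP10 the mean over its 2 spots was -0.21, so the direction rests on the brighter spot. DDX58, which encodes the RNA sensor RIG-I, had 4.50 and 1.95 (-2.55) and was lower. Brighter members differed less, with -0.03 for IFIT1 at 8.02 and 7.99, -0.13 for ISG15, 0.60 for STAT2 and 0.22 for IFITM2. IFNA8, an interferon alpha gene below the filter, had 2.16 and 6.01 (3.85) on its 1 spot, and IFNG, an interferon of lymphocytes, had 4.52 and 2.21 (-2.31) on the brightest of its 10 spots. In the MHC class I list, NLRC5, its transcriptional activator, had 2.64 and 4.28 (1.64, or 0.35 as the mean of 2 spots) as the 1 called gene of 16 (6.25%), whose median was 0.22.

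Short-lived mRNAs are typical targets of deadenylation. Of 43 immediate early and labile mRNAs, 1 was called higher and 1 lower (4.65%, near the 3.96% of all genes), 20 had a difference above 0 and 23 below it, and the median was -0.10. VEGFA, the vascular growth factor gene, had 6.71 without and 7.80 with Dox (1.09), and CXCL1, a chemokine gene, had 2.98 and 1.97 (-1.01). Neither was past 2-fold as the mean of its 2 spots, with 0.68 for VEGFA and -0.56 for CXCL1. FOS had 7.35 and 5.99 (-1.36) and EGR1, another immediate early transcription factor, had 8.32 and 7.11 (-1.21). FOS was also lower in the Luci pairs, with -1.91 and -1.40, and neither gene was beyond both of them. Among 36 interleukin and chemokine genes, IL23A, CCL2 and CXCL5 were called higher with 1.45, 1.61 and 1.41, and IL15 and CXCL1 lower with -1.43 and -1.01 (13.9%, beside 3.96% of all genes). Of the 36 genes, 3 were in the bright set, and 12.6% of the genes in the dimmest of the 5 bins were called. The share is therefore not read as an excess. IL23A had 3.96 without and 5.41 with Dox, below its Luci levels of 5.49 to 7.43. CCL2 had 0.48 as the mean of 10 spots.

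Shares of called genes in the other groups ranged from 0.0% to 21.4%, beside 3.96% of all genes. The groups were not matched for level. Of 37 genes of Nodal and TGF-beta signaling, LEFTY1 and INHBE, an activin subunit gene with 2.11 and 3.39 (1.28), were called higher (5.41%), and the receptor gene ACVRL1 had 4.20 and 6.08 (1.88) but also 1.44 in the second Luci pair. Among 28 genes listed as neuronal, STMN2, GAP43 and MAP2, of the cytoskeleton and growth cones, were called higher with 2.55, 1.98 and 1.43. SHISA2, NRXN3 and the neuropeptide gene NPY were called lower with -1.56, -1.39 (-0.65 as the mean of 2 spots) and -1.27, in all 21.4% of the list. NPY had 3.18 and 1.91 on the CNOT1 arrays and 7.34 to 8.08 on the Luci arrays. NRXN3 had 3.49 and 2.10 against Luci levels from 5.79 to 6.08. For SHISA2, with 5.34 and 3.78, the Luci arrays spread from 3.48 to 8.91, and the Luci differences were -0.20 and 2.92. HSPA1L (1.04) and CRYAB (-1.31), both of chaperones, were called among 21 heat shock genes (9.52%), and HOXD1 (-1.20, or -0.54 as the mean of 10 spots) among 34 HOX genes (2.94%). Of 234 snoRNA genes, 7 were called higher and 10 lower (7.26%), with a median of -0.17, and of 456 ZNF zinc finger genes 8 and 6 (3.07%). In the lists of cell cycle genes (54 kept), cytoplasmic ribosomal proteins (72), the mitochondrial ribosome (69), histones (61), cholesterol synthesis (22), p53 targets (25) and NRF2 targets (16), 0 genes were called, with medians between -0.05 and 0.21. The 13 mitochondrially encoded genes had a median of 0.09, beside 0.11 in Luci replicate 1 and 1.55 in Luci replicate 2.

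The own-line differences of CNOT2 and CNOT3 cells come from other arrays than those of CNOT1 cells. Over 15031 genes the CNOT1 differences had a Pearson correlation of 0.10 and 0.11 with the 2 CNOT2 pairs, 0.13 with the CNOT3 pair and 0.03 with each Luci pair, as a description across genes of quantile-normalized arrays. Of the 336 genes called higher, 16.1%, 13.7% and 19.9% were more than 2-fold higher in CNOT2 replicate 1, CNOT2 replicate 2 and CNOT3, beside 4.43%, 9.0% and 5.79% of all genes. Of the 259 genes called lower, 11.2%, 10.4% and 13.5% were more than 2-fold lower, beside 3.39%, 5.72% and 4.25%. Called genes were mostly dim, and dim genes passed 2-fold more often in every pair, so these shares are not set against genes of equal level.

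Across the lines, 14 genes called higher in the CNOT1 pair were also more than 2-fold higher in CNOT2 replicate 1 and CNOT3 cells. Of these, 7 were so in CNOT2 replicate 2 as well. The share of all genes past 2-fold in these pairs together is not given. The counts, here and in the lower direction, are therefore not read as an excess. TMEM173, now STING1, an adaptor of DNA sensing, had 5.33 without and 6.83 with Dox in CNOT1 cells (1.50), while its 4 Luci levels lay between 5.74 and 6.05. Its differences were 1.27 and 1.42 in CNOT2 and 1.17 in CNOT3 cells, and its standard error in the CNOT1 pair was 0.458 with an adjusted p of 1 from limma. C16orf45 had 1.28, 1.42 and 2.20 in these pairs, TRIM46, a microtubule organizer of axons, had 2.10 in CNOT1 (0.35 as the mean of 3 spots) and 1.36, 1.18 and 1.47 in the other cells, and GPR56, now ADGRG1, an adhesion receptor, had 1.99 and then 1.02, 1.06 and 1.97. MEI1, a meiosis gene, PARP10, with -0.21 as the mean of its 2 spots in the CNOT1 pair, and the pseudogene MBL1P were the other 3. In the lower direction, C2orf48 (-0.77 in the CNOT1 pair as the mean of 2 spots) and GRXCR1 were shared with CNOT2 replicate 1 and CNOT3, and 0 genes with all 3 other pairs. Called in the CNOT1 pair and not shared in this way were CHAC1, with differences between -0.84 and 0.04 in the CNOT2 and CNOT3 pairs, and BAZ2A, with differences between -0.59 and -0.19.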

How the data were processed

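Total RNA of 12 HEK-293T samples was amplified, labeled with Cy3 and hybridized to human Agilent 8x60K arrays. The authors log-transformed mean signals, used NormExp with the negative controls for background correction and applied quantile normalization in limma. The deposited values were used as log2 signals as they are, the base being inferred from their range. Values were missing for 13 to 90 spots per array, and detection calls were not at hand. Of 62976 spots, 37051 have 1 gene symbol in the platform annotation, for 20088 symbols, and 25925 have none. For 14860 of the 15031 genes kept, a current RefSeq symbol was found, which differs for 1521.

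Groups came from the sample titles. Log2 differences were taken between the 2 CNOT1 arrays and counts were made past 2-fold with no test. All 12 arrays entered a limma fit (limma 3.58.1, R 4.3.3) with 8 group means (4 residual degrees of freedom) and Benjamini-Hochberg adjustment. Replicates of CNOT2 and Luci carry numbers, and deviations of equally numbered arrays from their group means correlated with r from 0.365 to 0.614 over 6 pairs of groups. Whether they are technical or biological replicates is described differently in the sources, so p-values measure only the spread between these arrays, whose number limits the precision. Alternatives were the filter, the row that stands for a gene, cyclic loess, median centring, a replicate block, an intensity trend and leaving out arrays. The limma fit was tested on simulated arrays.

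Named genes were the targeted subunits, the 12 largest differences in each direction among called genes and among those of the bright set (genes at or above the median level), called and up to 4 leading members of each gene list, and genes named by the study. Other genes, and all genes with replicate spots, were chosen after their values were seen. The members and lists were chosen with earlier results of these data known. Promoter sequences came from RefSeq (GRCh38.p14). The sequence of the hairpin is not reported here.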

Additional observations from a re-analysis of the deposited data

Results flagged for a closer look

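Spots without a gene symbol also differed beyond both Luci pairs. Of 7379 such spots with a mean level at or above the filter, 346 were higher and 297 lower with Dox in CNOT1 cells (8.71%), compared with 3.96% of the named genes. The sets are not matched for level, since the median level was 3.68 for these spots and 7.3 for the named genes, each at its brightest spot, and dim genes were called more often. These spots were not used in the comparisons and their transcripts were not identified here.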

How the results depend on the processing

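The counts depended mainly on the level of the genes included. Without a filter on low values, 964 genes were more than 2-fold lower in the CNOT1 pair and 477 were lower beyond both Luci pairs. Among genes at or above the median level, 92 were higher and 53 lower, and 37 and 23 were beyond both Luci pairs. With the median level applied to the mean of the 2 CNOT1 arrays, chosen after seeing the data, these were 21 and 20. Leaving out 1 Luci pair gave 472 to 526 genes in the higher and 355 to 369 in the lower direction. Cyclic loess, median centring and the mean over all spots of a gene kept each count within 1.5 times. In limma, the replicate block alone gave 0 calls in both contrasts, as did the intensity trend, no filter, cyclic loess and leaving out each CNOT2 or Luci array. The replicate block with an intensity trend gave 1 call, OR7C2, whose single bright spot is described above (adjusted p = 0.0169, limma). The study describes a previous and a later experiment, and the labels do not say which arrays belong to each. Of 483 alternative values of 105 named genes, 466 moved by less than the spread between replicates and 16 by more. All 16 came from the mean over all spots. Many of the 466 could not move, since a filter leaves the difference of a gene unchanged and median centring shifts all genes alike. A gene with 1 spot also keeps its value in the mean over spots. With this mean, PARP10 changed its sign as a called gene, to -0.21, and CNOT2, CNOT7 and TNKS1BP1, not called, changed theirs to 0.20, -0.02 and 0.45. Of 125 list medians, 4 moved, to 0.03 for MHC class I (mean over spots), 0.22 for NRF2 targets (no filter), -0.06 for ribosomal proteins (cyclic loess) and 0.54 for interleukins and chemokines (genes at or above the median level). Low signals limit the precision of the dim genes, and no detection call was at hand. The cause of these shifts was not tested.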
